A study of Homo sapiens with 6 samples.

Results

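The genes described here encode the proteasome: the subunits of its 20S core and 19S cap, the immune and tissue-specific core subunits, the activators that can replace the cap, an inhibitor, and the factors that assemble the particle. They were taken from the deposited count table as every protein-coding gene whose symbol begins with PSMA, PSMB, PSMC, PSMD, PSME, PSMF or PSMG followed by a digit, with ADRM1 and POMP added. The rule found 51 genes of the 48162 in the table. Of these, 49 encode proteasome proteins, and PSMC3IP and PSME3IP1 carry a proteasome gene's name only and are given apart. PSMB3 was not analysed here. Both groups were SiHa cells, an established human cervical cancer cell line of epithelial origin. One group was transfected with si-CNN3#1, a single small interfering RNA against the calponin gene CNN3, and the other with si-NC, a control RNA. The transfection medium was exchanged at 24 h according to the labels and RNA was taken at 48 h, from 3 independent assays in each group. Since only 1 RNA against CNN3 was sequenced, its effect through CNN3 and any effect on other transcripts cannot be told apart. The sense strands of both RNAs are shown because they define the groups:
si-CNN3#1: gcagaugggaaccaacaaatt
si-NC: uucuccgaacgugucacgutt

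The proteasome degrades most short-lived and damaged proteins of the nucleus and cytosol after they have been tagged with ubiquitin. Its barrel-shaped 20S core stacks outer rings of alpha subunits, which gate the entrance, on inner rings of beta subunits, of which PSMB6, PSMB7 and PSMB5 carry the peptide-cutting sites. The 19S cap recognises ubiquitin, removes it, and unfolds the substrate with a ring of ATPases, and in the finished particle the standard subunits of each ring stand in equal number. In epithelial cells, interferon exchanges the catalytic subunits for PSMB9, PSMB10 and PSMB8, and peptides cut by the proteasome are the main source of those shown on class I molecules. The genes of the particle are known to be controlled together, by the transcription factor NFE2L1 when proteasome activity falls and by NF-Y, which binds CCAAT boxes.

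Reads on genes numbered 18147028 to 19026341 in the si-CNN3#1 samples and 20287139 to 24976517 in the si-NC samples. The 49 proteasome genes took 0.520% to 0.543% of them with si-CNN3#1 and 0.512% to 0.521% with si-NC, so the ranges met. Counts of CNN3, the targeted gene, were 490, 514 and 574 in the si-CNN3#1 samples and 1134, 1288 and 1234 in the si-NC samples. Its level fell by 49.1%, a log2 fold change of -0.97 with an SE of 0.0552 (edgeR adjusted p 2.04e-20), and the exact two-sided permutation test gave the smallest p that 3 samples against 3 allow, 0.1. All 6 epithelial markers were expressed, with a summed level of 1450 to 1460 FPKM with si-CNN3#1 and 1470 to 1500 with si-NC. Among them KRT8 fell by 12.2% (edgeR adjusted p 4.87e-07) and KRT18 fell by 11.6% (edgeR adjusted p 5.31e-05), both by more than any gene of the naming rule that passed below, and KRT7 differed by 4.52% (edgeR adjusted p 0.0832). FPKM is the number of fragments scaled by gene length and library size, and it is the scale on which levels of different genes are compared here. The 6 fibroblast markers summed to 8.91 to 9.44 and 8.57 to 9.49 FPKM, and both endothelial markers in the table to at most 0.402. The 5 leukocyte markers summed to 111 to 117 with si-CNN3#1 and 132 to 141 with si-NC, nearly all of it CD14, while PTPRC, which defines leukocytes, stayed at or below 0.387 FPKM. The part of these shifts in the values below was not tested, and in these bulk samples fewer cells of a type and less RNA per cell cannot be told apart.

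The proteasome genes were strongly and unevenly expressed. In si-NC, PSMA7, an alpha subunit, had the highest level at 466 ± 9.39 FPKM (SD, n = 3), followed by PSMD2, the cap subunit on which substrate shuttles dock, at 407 ± 1.13, PSMA4, another alpha subunit, at 295 ± 3.02, and PSMB7, which carries the trypsin-like site, at 209 ± 3.17. The activator PSME2 came next at 167 ± 5.16, and each of these stood above the gene after it without overlap of the samples. Below them the order was less certain: PSMB6, PSMD4, PSMD8, PSMB5, PSMB4, PSMC3 and PSMD11, at 155 to 141 FPKM, each overlapped the next. Of 31 tested subunits of the core and cap, 27 lay at 50 FPKM or more and PSMD14, the cap's deubiquitinase, just under it at 48.2 ± 0.566. The other 3, PSMA1, PSMA6 and PSMA2, lay far lower, at 16.5 ± 1.02, 4.28 ± 0.153 and 2.53 ± 0.212 FPKM, although they are core subunits of the standard particle.

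Those 3 genes share a feature of the annotation. In GENCODE release 29, 97.1% of the coding bases of PSMA2, 88.6% of PSMA1 and 70.4% of PSMA6 lie inside exons of another gene that is also a row of the table. For PSMA1 this gene is AC018523.2, which had 0 counts in every sample, for PSMA2 it is chiefly AC010132.3, with 0 to 3 counts, and for PSMA6 it is AL121594.1, with 13 to 20. PSMD9, a chaperone of cap assembly, had 58.7% of its coding bases in AC069503.2 and WDR66 and a level of 3.58 ± 0.353 FPKM. In all, 11 of the 49 genes shared coding bases with another counted gene, 5 of them more than 50%, and the fifth of those was PSMB10 with 58.3% at 18.2 ± 0.316 FPKM. PSMC1, an ATPase with 47.7% of its coding bases and 75.8% of all its exon bases shared with NRDE2, nevertheless stood at 112 ± 1.4 FPKM. PSMG2, a chaperone of core assembly, was the lowest gene above the detection filter at 0.812 ± 0.295 FPKM. It shared no coding bases, but 16.7% of its exon bases lay in exons of CEP76 and SPIRE1. The submitters' processing notes list HTSeq, a read counter, without the rule it applied to reads that fall in exons of more than 1 gene, and the part of that rule in these low levels was not tested. The levels of PSMA1, PSMA2, PSMA6, PSMB10 and PSMD9 are therefore uncertain.

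**Figure D1:**
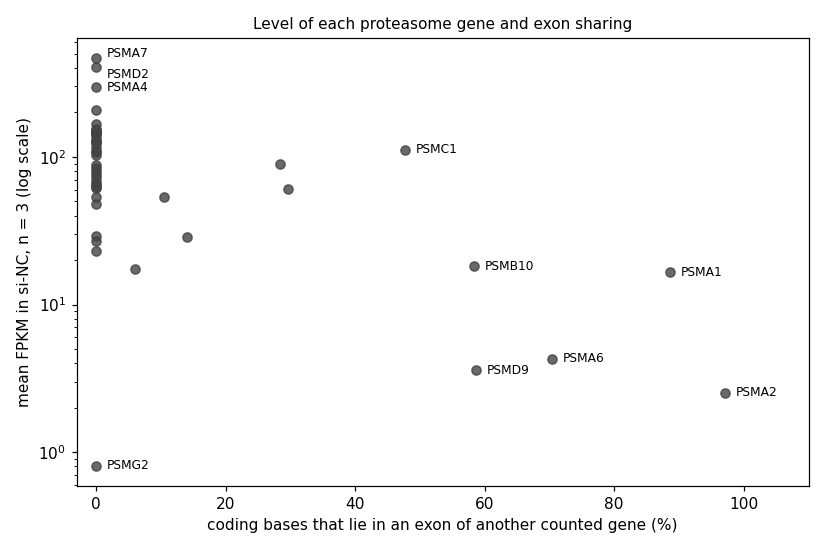
Mean FPKM in the 3 si-NC samples (log scale) against the percentage of a gene's coding bases that lie in exons of another counted gene, 1 point for each proteasome gene above 0.1 FPKM. PSMA1, PSMA2, PSMA6, PSMB10 and PSMD9 are past 50% and between 2.53 and 18.2 FPKM. PSMC1 stands at 47.7% and 112 FPKM, and PSMG2 is low with no coding bases shared.

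A pair of genes did not reach the filter on low counts. PSMA8, the alpha subunit of testis proteasomes, had 0 counts in all 6 samples, and PSMB11, the catalytic subunit of the thymus, had 1 count in a single si-NC sample. For each sample a count of 0 allows up to 3 counts. The other 47 were tested. Pseudogenes took few reads: 12 of 45 proteasome pseudogenes in the table had any, with 26 to 50 counts in all per sample and at most 24 on 1 of them, PSMD10P1.

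Between si-CNN3#1 and si-NC the proteasome genes differed little. At an edgeR adjusted p of at most 0.05, 4 rose and 1 fell, so 5 of 47 (10.6%) passed, against 13.3% of all 15860 genes tested. The 4 that rose were PSMB6, a catalytic core subunit, PSMD6 of the cap's lid, PSMD10, a chaperone of the cap's base, and POMP, which matures the core, and 6.17% of all tested genes rose. The 1 that fell was PSMF1, an inhibitor of the core, and 7.14% of all genes fell. The lid subunit SEM1, whose symbol lies outside the naming rule, is not in these counts and fell further, by 13.4%. Scaled to total counts alone, 7 rose and 0 fell, and the split over all genes moved from 978 higher and 1133 lower to 1294 higher and 863 lower. On the log2 scale the estimates ran from -0.24 for PSMD9 to 0.16 for PSMA1, with a median of 0.04. That median was 0.0023 over all tested genes. Estimates above 0 were found for 35 of the 47 (74.5%) and for 50.7% of all genes, and without si-CNN3#1 replicate 3 for 28 of the 47, when the median was 0.0211. The genes of a complex share their libraries, so these shares are descriptions.

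The data bounded the size of the differences closely. For 41 of the 47 genes the 95% interval lay within 0.25 on either side of 0 on the log2 scale, as it did for 51.9% of all genes, whose median SE was 0.0655 against 0.0356 here. No proteasome gene had an estimate past 0.25, and 15.3% of all genes did. The groups did not overlap in normalized CPM (counts scaled by library size after TMM normalization) for 11 of the 47, 7 higher and 4 lower, which is 23.4% against 28.2% of all genes. An unadjusted p under 0.05 was reached by 14 (29.8%), of which 10 were higher, against 25.1% of all genes.

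**Figure D2:**
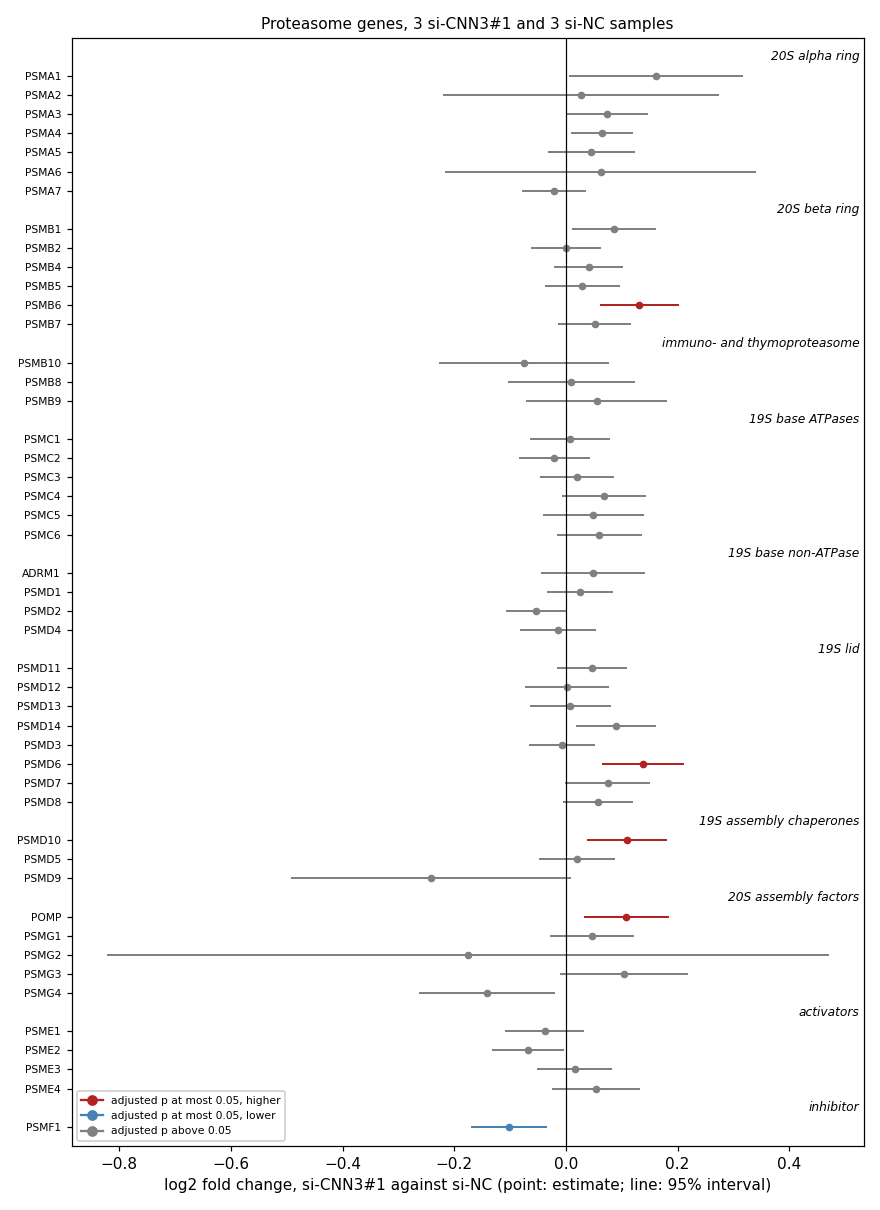
Log2 fold change of each tested proteasome gene, si-CNN3#1 against si-NC with 3 samples each, by subcomplex, with points for estimates and lines for 95% intervals from edgeR. PSMB6, PSMD6, PSMD10 and POMP are in red (higher, adjusted p at most 0.05) and PSMF1 in blue (lower), and the wide lines belong to PSMG2, PSMA6, PSMA2 and PSMD9, which had the fewest counts.

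In the alpha ring, 0 of 7 tested genes passed in either direction, with 6 estimates above 0 and a median of 0.06. PSMA3 had 95.9, 94.5 and 103 normalized CPM with si-CNN3#1 and 92.6, 92.9 and 92.9 with si-NC. PSMA4 had 297, 291 and 301 with si-CNN3#1 and 286, 279 and 285 with si-NC. In both genes every si-CNN3#1 sample lay above every si-NC sample. PSMA3-AS1, a gene on the other strand, had 1181 to 1670 counts but shares no exon base with PSMA3. Their log2 fold changes were 0.07 for PSMA3 (SE 0.0356, edgeR adjusted p 0.183) and 0.06 for PSMA4 (SE 0.0267, edgeR adjusted p 0.106). PSMA1 had the highest estimate of all proteasome genes, 0.16, but its samples overlapped, at 16.3, 14.9 and 18.3 CPM against 13.9, 15.6 and 14.6 (edgeR adjusted p 0.176). PSMA7, the most abundant, had 383, 364 and 397 CPM against 393, 377 and 392, a log2 fold change of -0.022 with a 95% interval from -0.077 to 0.034. PSMA5 lay at 0.05 with overlapping samples. PSMA2 and PSMA6, with 98 to 149 and 70 to 116 counts, had SEs of 0.122 and 0.138, wide enough to cover every other alpha estimate.

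All 6 measured genes of the constitutive beta ring had estimates above 0, with a median of 0.05, and 1 passed. PSMB2, at 0.00034, lay below 0 in 7 of 17 alternatives and PSMB5 in 1. PSMB6 (chr17:4796144-4798503, plus strand, GRCh38), which carries the caspase-like site, had 114, 112 and 117 CPM with si-CNN3#1 and 99.5, 107 and 107 with si-NC. The groups did not overlap, and the lowest si-NC sample, replicate 1, stood apart from the other two. PSMB6 rose by 9.52% (95% interval 4.4% to 14.9%), a log2 fold change of 0.13 with an SE of 0.0344 (edgeR adjusted p 0.00549). Without si-NC replicate 1 the difference was 0.10 and no longer passed (edgeR adjusted p 0.0885), in a range from 0.000271 to 0.102 over 17 alternatives.

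The other beta genes did not pass. PSMB1, which has no active site, had 123, 122 and 139 CPM with si-CNN3#1 and 118, 117 and 127 with si-NC, a log2 fold change of 0.09 (SE 0.0367, edgeR adjusted p 0.119). Its si-CNN3#1 replicate 3 was the highest of the 6 samples, and leaving out replicate 2 instead gave 0.12 (edgeR adjusted p 0.0464, range 0.0225 to 0.751). PSMB7, which carries the trypsin-like site, had 157, 148 and 162 CPM against 152, 151 and 148, and PSMB5, which carries the chymotrypsin-like site, had 127, 133 and 139 against 128, 133 and 129. The samples overlapped in both genes, with log2 fold changes of 0.05 and 0.03. PSMB2 was the least moved of all 47, at 148, 143 and 146 CPM against 147, 144 and 147, with a 95% interval from -0.061 to 0.061.

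The immune subunits were present at low levels and 0 of 3 tested passed. PSMB8 had 29.3 ± 1.88 FPKM with si-CNN3#1 and 28.8 ± 0.518 with si-NC, PSMB9 had 24.3 ± 0.967 and 23.1 ± 1.31, and PSMB10 had 17.5 ± 1.06 and 18.2 ± 0.316. The samples overlapped in all 3, with log2 fold changes of 0.0099, 0.05 and -0.074 and edgeR adjusted p of 0.94, 0.647 and 0.599. Each immune subunit was far below the standard subunit it replaces. The FPKM ratio of PSMB6 to PSMB9 was 6.7, 7.08 and 7.48 with si-CNN3#1 and 6.2, 6.62 and 7.35 with si-NC. For PSMB7 to PSMB10 it was 12, 11.9 and 14 against 11.5 in each si-NC sample, and here the groups did not overlap, though 58.3% of PSMB10's coding bases are shared. For PSMB5 to PSMB8 it was 4.59, 5.34 and 5.67 against 5, 5.32 and 4.97, with overlap.

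**Figure D3:**
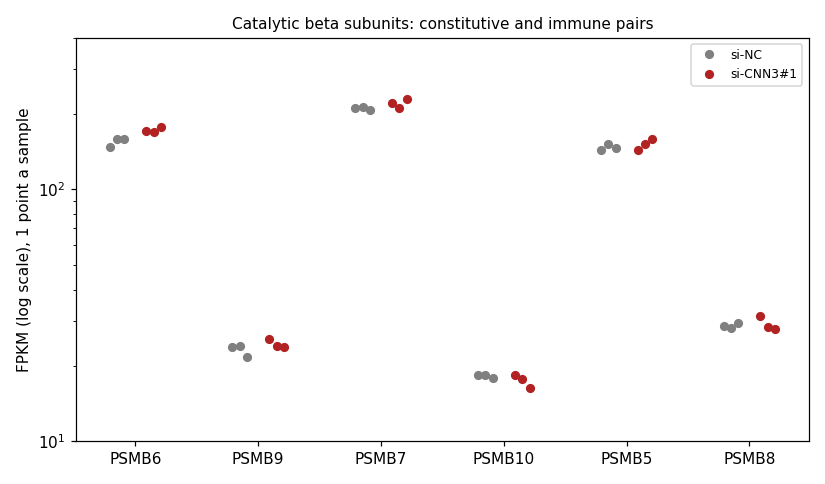
FPKM (log scale) of the catalytic beta subunits, 1 point a sample, each standard subunit beside the immune subunit that replaces it. The standard subunits PSMB6, PSMB7 and PSMB5 lie above their partners PSMB9, PSMB10 and PSMB8 in every sample, by mean ratios of 6.73, 11.5 and 5.1 in si-NC (gray).

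Of the 6 ATPases that unfold the substrate, 0 passed, 5 had estimates above 0, and the median was 0.03. PSMC4 was the highest at 0.07 (SE 0.0366, edgeR adjusted p 0.248), from 93.8, 87.9 and 96.5 CPM with si-CNN3#1 and 89.5, 86.8 and 89.2 with si-NC. PSMC6 followed at 0.06, from 88.7, 82.6 and 89.7 CPM against 81.9, 82.2 and 86.2. PSMC2 was the only one below 0 in this test, at -0.021, with 141, 134 and 137 CPM against 138, 140 and 139. In all 6 ATPase genes the groups overlapped and the interval stayed within 0.25 of 0. PSMC3, at 129 CPM in each si-CNN3#1 sample and 124, 125 and 133 with si-NC, differed by 0.02.

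The 4 other subunits of the cap's base also had 0 calls, and their median was 0.0058. PSMD2 had 407, 383 and 404 CPM with si-CNN3#1 and 415, 410 and 414 with si-NC, so every si-CNN3#1 sample lay below every si-NC sample. The log2 fold change was -0.053 with an SE of 0.0263 (edgeR adjusted p 0.196), among the smallest SEs of the set. PSMD1, the other large scaffold, lay at 0.03 from 188, 187 and 191 CPM against 188, 182 and 186. The ubiquitin receptors PSMD4 and ADRM1 lay at -0.014 and 0.05, with overlapping samples and intervals from -0.080 to 0.052 and from -0.042 to 0.14.

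In the lid, which holds the deubiquitinase PSMD14, 1 of 8 genes passed, 7 estimates were above 0 and the median was 0.05. These counts do not hold SEM1, the smallest lid subunit, which went the other way by more than any of the 8 (log2 fold change -0.21, edgeR adjusted p 1.63e-06, values with the partner genes below). PSMD6 (chr3:64010549-64024010, minus strand), a structural subunit of the lid, had 103, 108 and 113 CPM with si-CNN3#1 and 98.1, 95 and 102 with si-NC. The groups lay next to each other without overlap. PSMD6 rose by 10.0% (95% interval 4.65% to 15.7%), a log2 fold change of 0.14 with an SE of 0.0361 (edgeR adjusted p 0.00535). It did not pass without si-CNN3#1 replicate 3 (0.10, edgeR adjusted p 0.0764) or without si-NC replicate 2 (0.11, edgeR adjusted p 0.0664), and its adjusted p ran from 0.000173 to 0.16 over the 17 alternatives. An antisense gene, PSMD6-AS2, had 48 to 67 counts beside 1938 to 2365 on PSMD6, and the library kit does not mark strand, so reads of the pair cannot be told apart where they overlap. PSMD14 had 98.9, 97.6 and 104 CPM with si-CNN3#1 and 95.6, 92.9 and 93.5 with si-NC. Its groups did not overlap either, and its log2 fold change of 0.09 (SE 0.0349) gave an edgeR adjusted p of 0.0783. PSMD8, at 141, 142 and 145 CPM against 138, 135 and 140, did not overlap and lay at 0.06 (edgeR adjusted p 0.241). PSMD7, the partner of PSMD14 in the lid, lay at 0.07, PSMD11 at 0.05, PSMD13 at 0.0081, PSMD12 at 0.0018 and PSMD3 at -0.0069, each with overlapping samples.

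The 3 chaperones that assemble the base did not move alike. PSMD10, also called gankyrin (chrX:108084207-108091618, minus strand), had 112, 110 and 116 CPM with si-CNN3#1 and 103, 101 and 110 with si-NC. si-CNN3#1 replicate 2 and si-NC replicate 3, both at 110, differed in the decimals only, so the groups just failed to overlap. PSMD10 rose by 7.87% (95% interval 2.76% to 13.2%), a log2 fold change of 0.11 with an SE of 0.0349 (edgeR adjusted p 0.0271). It lost its call without si-CNN3#1 replicate 1 (edgeR adjusted p 0.0541) or 3 (0.152) and without si-NC replicate 1 (0.101) or 2 (0.198), within a range of 0.00376 to 0.198 over all alternatives, with the difference between 0.08 and 0.14 throughout. PSMD5 lay at 0.02, from 109, 108 and 108 CPM against 106, 106 and 108. PSMD9 had the lowest estimate of all, -0.24, from 4.67, 5.21 and 4.87 CPM against 5.33, 5.66 and 6.44. Its groups did not overlap, but on 88 to 141 counts the SE was 0.124 and it did not pass (edgeR adjusted p 0.217).

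Among the 5 factors that assemble the core, POMP rose and the others did not pass. POMP (chr13:28659104-28678925, plus strand), which is degraded by each core it completes, had 98.3, 92.9 and 101 CPM with si-CNN3#1 and 91.4, 86.6 and 93.2 with si-NC. The groups overlapped, since si-CNN3#1 replicate 2 lay under si-NC replicate 3. The log2 fold change was 0.11 with an SE of 0.0367, an increase of 7.8% (95% interval 2.43% to 13.4%, edgeR adjusted p 0.0394). POMP lost its call without si-CNN3#1 replicate 1 (edgeR adjusted p 0.119) or 3 (0.209) and without si-NC replicate 1 (0.0589) or 2 (0.276), within a range of 0.00848 to 0.276 over all alternatives. PSMG4 had 22.8, 22.1 and 22.7 CPM against 24.5, 25.4 and 24.6, with every si-CNN3#1 sample lower, and a log2 fold change of -0.14 (SE 0.06, edgeR adjusted p 0.117). Its partner PSMG3 had 30.7, 29.7 and 32.5 CPM against 28.7, 27.8 and 30.1, and an estimate of the other sign, 0.10 (SE 0.0562, edgeR adjusted p 0.246). PSMG1 lay at 0.05, and its partner PSMG2, on 11 to 30 counts, had an interval from -0.82 to 0.47, so differences as small as those of the other members were not detectable at this depth.

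Of the 4 activators, 0 passed, and their median was -0.011. PSME1 and PSME2, which form the interferon-inducible ring together, had 113, 108 and 109 CPM against 112, 118 and 108 and 148, 142 and 150 CPM against 149, 157 and 155. Both pairs of groups overlapped, with log2 fold changes of -0.038 (edgeR adjusted p 0.547) and -0.068 (edgeR adjusted p 0.153). Their FPKM ratio, PSME1 to PSME2, was 0.785 ± 0.02 with si-CNN3#1 and 0.768 ± 0.0316 with si-NC. PSME3, the nuclear activator, lay at 0.02, and PSME4, the largest, at 0.05 with the lowest level of the 4, 29 ± 0.934 FPKM in si-NC.

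PSMF1 was the 1 gene of the naming rule that fell. It encodes a protein first purified as an inhibitor of the core (chr20:1113263-1189415, plus strand). Normalized CPM was 107, 109 and 110 with si-CNN3#1 and 115, 115 and 120 with si-NC, without overlap. PSMF1 fell by 6.85% (95% interval of the change -11.1% to -2.46%), a log2 fold change of -0.10 with an SE of 0.0332 (edgeR adjusted p 0.0297). The call was lost without si-CNN3#1 replicate 1 (edgeR adjusted p 0.118) or 2 (0.0594), without si-NC replicate 3 (0.179), and with total-count scaling (0.0813). Thinned counts, DESeq2 and every limma fit, alternatives described at the end, lost it too. Over all alternatives its adjusted p ran from 0.0068 to 0.225 and the difference from -0.11 to -0.081. Both genes that carry a proteasome gene's name only lay above 0 without passing: PSMC3IP, a meiotic recombination factor, at 0.07 and PSME3IP1, which binds PSME3, at 0.05.

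**Figure D4:**
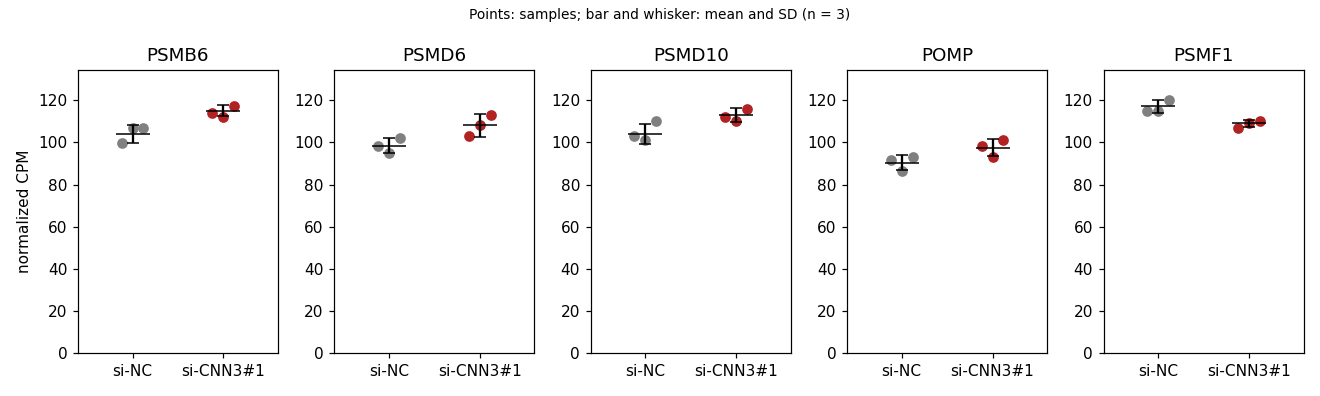
Normalized CPM of the 5 proteasome genes with an edgeR adjusted p of at most 0.05, with a point for each sample and the mean and SD of 3 samples in each group. The si-CNN3#1 mean lies above the si-NC mean for PSMB6, PSMD6, PSMD10 and POMP and below it for PSMF1. For POMP the samples of both groups overlap. The changes reach from the 6.85% by which PSMF1 fell to the 10.0% by which PSMD6 rose.

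The stretches before the starts of these genes are shown because mRNAs of transcription factors known to act on proteasome genes differed as well, as given below. Any link between those differences and the differences of the proteasome genes was not tested. Windows of 250 bases before to 50 bases after the annotated start came from RefSeq on GRCh38.p14 and were matched by symbol for 43 of the 49 genes. The letters searched on both strands were CCAAT, the NF-Y box, and TGACNNNGC, the core of the element bound by NFE2L1 and NFE2L2 with small MAF proteins. No match of one overlapped a match of the other. CCAAT was in 19 of the 43 windows (44.2%) and in 35.7% of 27305 windows of all genes. TGACNNNGC was in 13 (30.2%), against 13.6% of all windows. The windows of all genes were not matched to those of the proteasome genes in expression or base composition. Of the genes that passed, PSMD6 and PSMD10 held CCAAT, read on the other strand, 192 and 76 bases before the start, in capitals below. POMP and PSMF1 held neither set of letters, and PSMB6 was not among the 43. PSMD14, the nearest to the threshold of those that did not pass, held CCAAT on both strands in 1 overlapping run that begins 48 bases before its start. The RefSeq start lies 516 bases inside the GENCODE gene for PSMD6, so that its whole stretch is within the gene, 76 bases inside for PSMD10, 26 for POMP and 0 for PSMF1. The 250 bases before each RefSeq start are chr3:64023495-64023744 (minus strand) for PSMD6, chrX:108091543-108091792 (minus strand) for PSMD10, chr13:28658880-28659129 (plus strand) for POMP and chr20:1113013-1113262 (plus strand) for PSMF1:
PSMD6: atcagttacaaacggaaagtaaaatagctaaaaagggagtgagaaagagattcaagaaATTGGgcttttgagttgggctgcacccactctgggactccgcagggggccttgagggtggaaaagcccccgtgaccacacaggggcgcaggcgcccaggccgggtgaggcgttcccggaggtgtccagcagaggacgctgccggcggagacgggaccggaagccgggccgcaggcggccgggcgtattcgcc
PSMD10: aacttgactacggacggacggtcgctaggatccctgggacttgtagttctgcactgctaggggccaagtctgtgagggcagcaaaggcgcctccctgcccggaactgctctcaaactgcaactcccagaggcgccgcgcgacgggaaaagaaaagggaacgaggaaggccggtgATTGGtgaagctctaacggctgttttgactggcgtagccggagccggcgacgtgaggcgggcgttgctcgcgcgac
POMP: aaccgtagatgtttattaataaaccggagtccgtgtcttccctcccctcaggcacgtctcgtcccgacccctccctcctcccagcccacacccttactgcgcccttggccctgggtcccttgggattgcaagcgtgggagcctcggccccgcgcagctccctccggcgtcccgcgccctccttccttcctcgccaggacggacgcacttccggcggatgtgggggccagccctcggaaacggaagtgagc
PSMF1: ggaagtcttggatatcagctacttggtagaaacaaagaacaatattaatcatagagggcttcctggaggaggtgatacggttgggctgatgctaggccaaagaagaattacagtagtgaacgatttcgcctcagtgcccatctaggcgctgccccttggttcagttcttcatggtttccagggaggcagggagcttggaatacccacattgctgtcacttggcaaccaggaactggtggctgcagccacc

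Genes that work with the proteasome were read from 5 lists, and calls were found in both directions. The lists were chosen with earlier results of these data known, so their shares beside those of all genes are descriptions and not tests. Their median SEs, 0.0294 to 0.0432, were also smaller than the 0.0655 of all genes. Of 12 regulators of proteasome genes, 4 rose and 1 fell, which is 41.7% of the list against 13.3% of all tested genes, and the median log2 fold change was 0.04 against 0.0023. NFYB, a DNA-binding subunit of NF-Y, had 92, 97 and 98.8 CPM with si-CNN3#1 and 77.5, 80.8 and 78.7 with si-NC. NFYC, which pairs with it, had 62.2, 64.4 and 63.6 against 55.4, 53 and 57.7. Every si-CNN3#1 sample was above every si-NC sample in both genes, with log2 fold changes of 0.28 (SE 0.0365, edgeR adjusted p 3.92e-08) and 0.20 (SE 0.0425, edgeR adjusted p 0.00056). NFYA, the subunit that reads CCAAT, had 30.1, 28.4 and 31.7 CPM against 30.2, 28.6 and 29.4 and did not pass. NFE2L1 had 169, 164 and 169 CPM against 184, 178 and 185 and fell by 8.11% (edgeR adjusted p 0.00225). NFE2L2, its relative, and MAFF, a small MAF partner, rose, with log2 fold changes of 0.09 and 0.24, and each lost its call when single libraries were left out. For NFE2L2 these were si-CNN3#1 replicate 2 (edgeR adjusted p 0.154) and si-NC replicates 1 (0.231) and 3 (0.0503), in a range of 0.00095 to 0.231. For MAFF they were si-CNN3#1 replicate 1 (edgeR adjusted p 0.0627) and si-NC replicate 3 (0.115), in a range of 0.00185 to 0.144.

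Of 14 tested genes that bring substrates to the proteasome or bind it, 3 rose and 2 fell, which is 35.7% against 13.3% of all genes, with a median log2 fold change of 0.06, and DDI1 was not tested. SEM1, the lid subunit outside the naming rule, had 139, 130 and 136 CPM with si-CNN3#1 and 162, 152 and 154 with si-NC. It fell by 13.4% (log2 fold change -0.21, SE 0.0319, edgeR adjusted p 1.63e-06) and passed in all 17 alternatives. RAD23B, a shuttle that carries ubiquitin-tagged proteins, had 336, 330 and 330 CPM against 359, 358 and 358 and fell by 7.42% (edgeR adjusted p 0.00137). UBQLN1, another shuttle, had 240, 240 and 237 CPM against 222, 224 and 215 and rose by 8.57% (edgeR adjusted p 0.00153). The shuttles therefore went both ways, and UBQLN2 and UBQLN4 did not pass, at 0.02 and -0.028. ECPAS, an adaptor of the whole particle, had 176, 180 and 181 CPM against 163, 164 and 159 and rose by 10.5% (edgeR adjusted p 0.000255). DDI2, the protease that cuts NFE2L1 into its active form, had 88.3, 89.2 and 87.1 CPM against 80.1, 79.2 and 77.5 and rose by 11.8% (edgeR adjusted p 0.000977). RAD23B, UBQLN1, ECPAS and DDI2 also passed in all 17 alternatives.

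**Figure D5:**
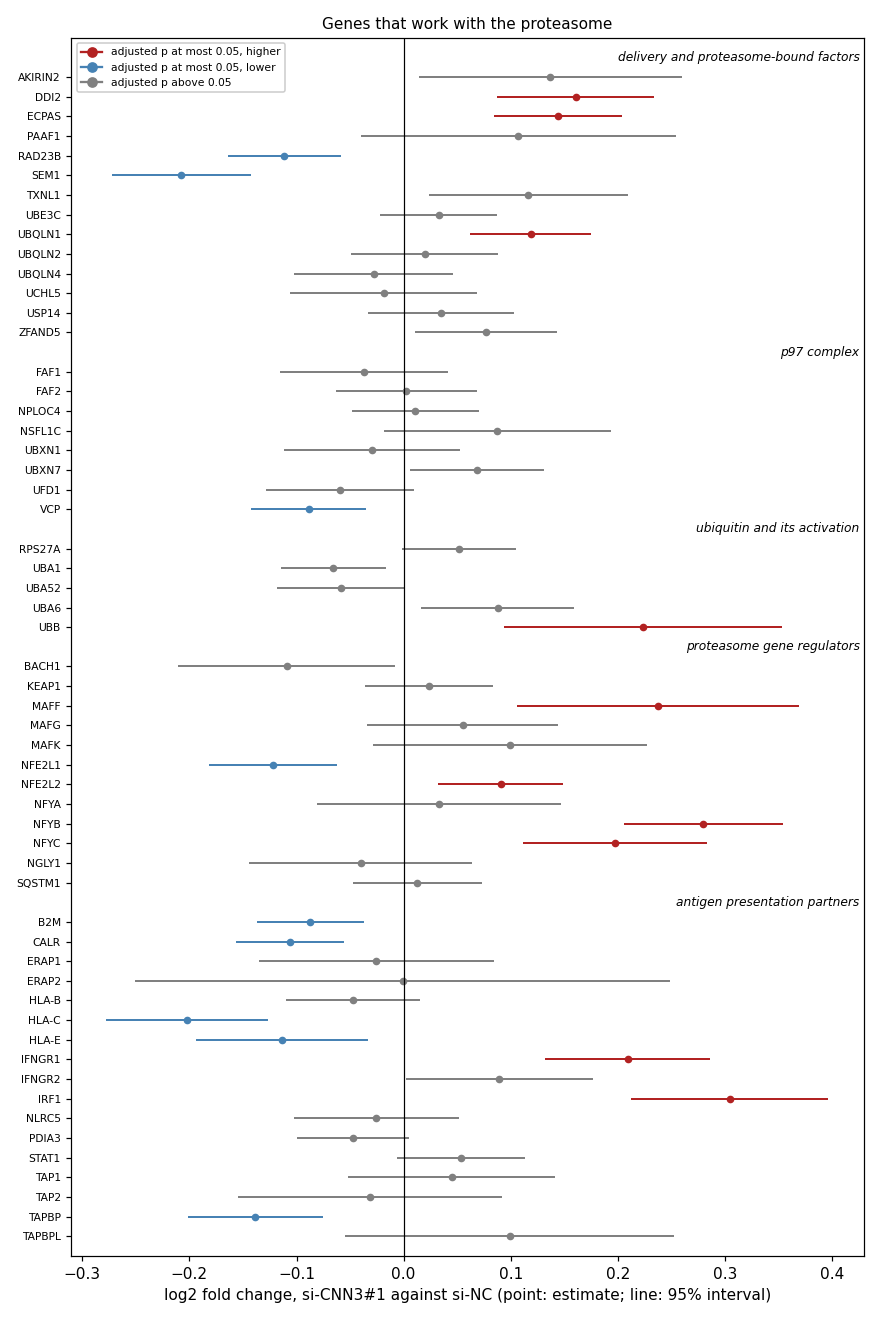
Log2 fold change of the tested genes of 5 lists of proteasome partners, si-CNN3#1 against si-NC with 3 samples each, with points for estimates and lines for 95% intervals from edgeR. Calls (adjusted p at most 0.05) lie on both sides of 0 in the delivery, regulator and antigen presentation lists, from -0.21 for SEM1 to 0.30 for IRF1.

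In the p97 complex, which pulls tagged proteins out of membranes and assemblies, 1 of 8 genes passed (12.5%), and the median was -0.014. VCP, the p97 ATPase itself, had 298, 289 and 295 CPM against 312, 309 and 316, without overlap, and fell by 5.96% (edgeR adjusted p 0.0161). Its call was lost without si-CNN3#1 replicate 2 (edgeR adjusted p 0.0763), si-NC replicate 1 (0.0518) or si-NC replicate 3 (0.0848), and with total-count scaling (0.0531), in a range of 0.00057 to 0.128. Every limma fit lost it too. Of 5 genes for ubiquitin and its activation, 1 passed (20%, list median 0.05), the polyubiquitin gene UBB, whose repeated sequence makes its read counts uncertain. UBB had 175, 166 and 260 CPM with si-CNN3#1 and 171, 167 and 177 with si-NC, so its call (log2 fold change 0.22, edgeR adjusted p 0.0124) rested on si-CNN3#1 replicate 3. Without that sample the difference was -0.0085 (edgeR adjusted p 0.92), in a range of 2.07e-11 to 0.92. UBA1 and UBA6, which activate ubiquitin, lay at -0.066 and 0.09 without passing (edgeR adjusted p 0.0587 and 0.0933).

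Among 17 genes that use proteasome products for antigen presentation, or that set the level of immune subunits, 2 rose and 5 fell, which is 41.2% against 13.3% of all genes, with a median of -0.025. The immune subunits themselves, as given above, did not pass. IRF1, a transcription factor that induces PSMB9, had 52.5, 53.2 and 52.8 CPM with si-CNN3#1 and 43.6, 42.7 and 42 with si-NC. IFNGR1, a chain of the interferon gamma receptor, had 91.5, 87.3 and 85.6 against 74.7, 79.5 and 74.2. The groups were well apart in both, with log2 fold changes of 0.30 (edgeR adjusted p 8.36e-07) and 0.21 (edgeR adjusted p 4.02e-05), and both passed in all 17 alternatives. TAPBP, which edits the peptides of class I molecules, fell by 9.15% (edgeR adjusted p 0.000901). CALR, a folding chaperone of class I molecules, fell by 7.07% (edgeR adjusted p 0.00153), and B2M, the light chain of those molecules, fell by 5.87% (edgeR adjusted p 0.00966). HLA-C fell by 13.1% (edgeR adjusted p 4.83e-05) and HLA-E fell by 7.58% (edgeR adjusted p 0.0454). HLA-B, at -0.047, the folding factor PDIA3, at -0.047, and the peptide editor TAPBPL, at 0.10, did not pass (edgeR adjusted p 0.357, 0.247 and 0.459). HLA genes are a multigene family, and how reads that match more than 1 of them were counted is not stated, so their values are uncertain. B2M lost its call without si-NC replicate 3 (edgeR adjusted p 0.0856, range 1.9e-05 to 0.296). HLA-E passed with 1 library left out only for si-NC replicate 1, and for the other 5 its adjusted p lay between 0.0522 and 0.358. The transporter genes TAP1 and TAP2, which sit beside PSMB9 and PSMB8 on chromosome 6, lay at 0.04 and -0.031 and did not pass.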

How the data were processed

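SiHa cells were sequenced on an Illumina instrument in 3 samples per group, and groups were taken from the sample labels. The authors deposited raw read counts per Ensembl gene (Bowtie2 2.0.6, TopHat2 2.0.9, HTSeq and DESeq 1.10.1 are in the submitters' processing notes) and FPKM values, which the authors computed from the same counts. The genome build, the annotation and the counting rule are not given in the sources used here. Names, positions and exon sharing were taken from GENCODE release 29 (GRCh38) and promoter windows from RefSeq (GRCh38.p14). The members and lists were chosen with earlier results of these data known. The genes named are all members, the lists of partners and CNN3, and 3 genes of those lists are not reported here and were left out of their counts.

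Counts were tested with edgeR 4.0.16 in R 4.3.3 (TMM, filterByExpr, quasi-likelihood test, no covariate). Adjusted p-values are Benjamini-Hochberg values over all 15860 tested genes, and 0.05 was the threshold. Each SE was derived from the estimate and its F statistic, and intervals are 95%. Replicates of a group differed by more than counting noise and none were merged. The scripts were tested on simulated data with true changes of 0.5 and 1 on the log2 scale, of which edgeR recovered 81% and 100%. Changes as small as those of the called members were not simulated. Alternatives were RLE, upper-quartile and total-count scaling, DESeq2 1.42.0, other filters, thinned counts, a replicate block, each sample left out, and limma 3.58.1 on log2 FPKM with a pseudocount of 1 or 0.1, a scale that understates changes of low genes, with or without a minimum mean of 1 FPKM. Depth per sample, at least 18147028 counts, left an SE of 0.0356 for the median member.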

Additional observations from a re-analysis of the deposited data

How the results depend on the processing

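The median log2 fold change of the 47 tested members stayed between 0.0211 and 0.0602 in 17 alternatives, and the fall of CNN3 passed in every one. No member that was called changed sign, and 14 members that were not called changed sign in 1 or more alternatives. Members called higher, 4 in the main test, numbered 7 with total counts and with the replicate block, 2 with DESeq2, 0 with unfiltered limma, and 1 to 5 with 1 sample left out. Members called lower, 1 in the main test, numbered 0 with total counts, DESeq2, thinned counts and all 3 limma fits, 2 with the block, and 0 to 1 with 1 sample left out. PSMB6 was called in 15 of 17, PSMD6 in 14, PSMD10 in 11, PSMF1 in 8 and POMP in 7. With DESeq2 only PSMB6 and PSMD6 were called, and its adjusted p was 0.181 for POMP, 0.134 for PSMD10 and 0.119 for PSMF1. Same-numbered samples correlated at 0.0224, 0.0572 and 0.0304 in their deviations from the group means, and every sample correlated best with its own number. Whether same-numbered samples were prepared together was not established, and the main test left such a pairing out. The replicate block called 9 members and 17.2% of all genes, adding PSMB1, PSMA4, PSMD14 and PSMD2. Partner genes called higher, 10 in the main test, numbered from 7 with DESeq2 and with unfiltered limma to 13 with total counts. Those called lower, 9 in the main test, numbered 6 with each filtered limma fit, 2 without the filter and up to 11 with the block. Among the called members and partner genes, UBB alone changed sign, to -0.0085 without si-CNN3#1 replicate 3, and stood at 0.34 without replicate 2. The cause of these differences between settings was not tested.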
